A study of Mus musculus with 2 samples.

Results

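The cells described here come from the mouse spleen, passed a count gate for αβ T cells and had at least 1 UMI of Klrb1c or Zbtb16. They were proposed under the working name of NKT-like innate αβ T cells. The choice rests on their own counts. A cell needed at least 2 UMIs of Cd3d and Cd3e together, at least 1 UMI of Trbc1, Trbc2 or Trac, at least 1 UMI of Klrb1c or Zbtb16, and no UMI of Trdc, Tcrg-C1, Tcrg-C2, Tcrg-C4, Foxp3 or Cd79a. A UMI, or unique molecular identifier, marks 1 captured transcript. Among 25289 cells kept after filtering, 102 met the rule. The WT library gave 87 of them and the CKO library 15. The counts of the rule's own genes are therefore a description and support nothing below. They are called Klrb1c/Zbtb16 cells here, because the cells of the CKO library went against the proposed name (below).

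Natural killer T (NKT) cells are T cells of innate habit that recognise lipids presented by CD1d and leave the thymus already able to secrete cytokines. Their development depends on PLZF, the transcription factor encoded by Zbtb16, and in C57BL/6 mice many carry NK1.1, the lectin receptor encoded by Klrb1c. NKT1 cells use T-bet and make interferon gamma, NKT2 cells use GATA3 and make interleukin 4, and NKT17 cells make interleukin 17. NK1.1 is also carried by NK cells, and PLZF by some γδ T cells and innate lymphoid precursors, so neither gene names a cell type alone.

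The libraries were made from immune cells of the spleen of C57BL/6 mice with a 10x Genomics kit that reads transcript 3′ ends in single droplets. One genotype was wild type (WT), and in the other RPA1 was conditionally knocked out (CKO). The protein RPA1 is part of replication protein A, the complex that binds single-stranded DNA during replication and repair. The labels name neither the Cre driver nor the deleted exons, nor say how many animals each library pooled. Each genotype was 1 library, so genotypes are compared without a test and without a p-value, and every interval in parentheses is a 95% interval that covers counting error only.

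The WT library held 13291 barcodes and 84240951 UMIs, and the CKO library 12958 barcodes and 76910129 UMIs. Median depth per barcode was 5355 and 4616 UMIs. The libraries shared 36 barcodes, and 0 of the chosen cells carried a shared one. The 87 WT cells had a median of 7121 UMIs and the 15 CKO cells one of 7740 UMIs. Summed over cells this gave 754941 and 123329 UMIs, so that 3 counts of a gene in the CKO cells already stand for 24.3 CPM (counts scaled to a total of 1000000 UMIs).

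The name was checked with Il2rb and Xcl1, the only proposed markers that the rule did not use. Il2rb encodes the β chain of the interleukin 2 and 15 receptors, and Xcl1 a chemokine of NK and innate T cells. In the WT library 75 of 87 Klrb1c/Zbtb16 cells had an Il2rb UMI (86.2%), against 21.1% of the other gated αβ T cells and 1.13% of B cells. Xcl1 was found in 45 of 87 (51.7%), against 4.04% and 0.486%. With each cell thinned to 1000 UMIs the Il2rb shares were 43.7%, 4.11% and 0.321%, and the Xcl1 shares 26.4%, 0.968% and 0.153%. Both markers were thus far above background in the WT cells. NK cells carry them too, at 91.7% for Il2rb and 33.4% for Xcl1, so they do not part NKT from NK cells.

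In the CKO library 12 of 15 cells had Il2rb, but 11 of those 12 also had Ncr1, which encodes the NK receptor NKp46. All 5 CKO cells with Xcl1 had Ncr1 and none had Trac, the constant segment of the T cell receptor α chain. Ncr1 was present in 11 of 15 CKO cells against 17 of 87 WT cells. It was also found in 0.276% of other αβ T cells and 0.764% of B cells in WT, and in 0.414% and 1.61% of these cells in CKO. The 14 NK markers, Ncr1, Eomes, Klra4, Klra8, Klre1, Klri2, Fcer1g, Tyrobp, Gzma, Prf1, Itgam, S1pr5, Cma1 and Irf8, summed to a median of 96.6 UMIs per 10000 in the CKO cells (lowest 0, highest 227) and 3.60 in the WT cells (0 to 149). The median was 0 in other αβ T cells of both libraries, 3.13 and 3.17 in WT and CKO B cells, and 251 and 250 in WT and CKO NK cells. The list is thus not carried by NK cells alone, and the WT median was close to that of B cells. All 14 were detected in the chosen cells of both libraries, and Ncr1 and Klra4 were at 0 in the 70 WT cells without Ncr1. The main comparisons are therefore given with and without the cells that carry Ncr1, and the part of NK transcripts in the other values was not tested.

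The CKO cells fell into 4 kinds by counts. Ncr1 and Trac were found together in 6 cells, and 5 of these 6 were marked by a doublet score. Another 5 had Ncr1 but neither Trac nor Cd3e, and 0 of these 5 were marked. A pair had 105 and 93 UMIs of Lyz2, the lysozyme of myeloid cells, with Tyrobp, Fcer1g, Cst3 and Csf1r beside Trac and 1 Zbtb16 UMI each, and both were marked. With no Ncr1, Klre1 or Eomes UMI, this pair still had 33.8 and 46.0 NK marker UMIs per 10000. The remaining 2 had Trac, no Ncr1 and no Lyz2, and neither was marked. Their NK marker UMIs per 10000 were 31.0 in the cell of 2900 UMIs and 0 in that of 5288 UMIs. The WT cells were divided otherwise. Of 87, 64 had Trac, no Ncr1 and under 10 Lyz2 UMIs, and 6 of those 64 were marked. Of the WT cells with Ncr1, 13 had Trac, of which 9 were marked, and 4 lacked it, of which 0 were marked. A further 2 had 10 or more Lyz2 UMIs, both marked, and 4 had neither Ncr1 nor Trac. In all, the score marked 17 of 87 WT (19.5%) and 7 of 15 CKO Klrb1c/Zbtb16 cells (46.7%). Other gated αβ T cells stood at 1.52% in WT and 2.28% in CKO, and NK cells at 0.331% and 1.08%. B cells stood at 10.4% and 9.61%. Over all kept cells 11% in WT and 10.3% in CKO were marked, as the cutoff was placed near the expected share. Only 3.97% of WT and 4.07% of CKO NK cells had a Trac UMI. The heat map of UMI counts shows each cell.

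**Figure D1:**
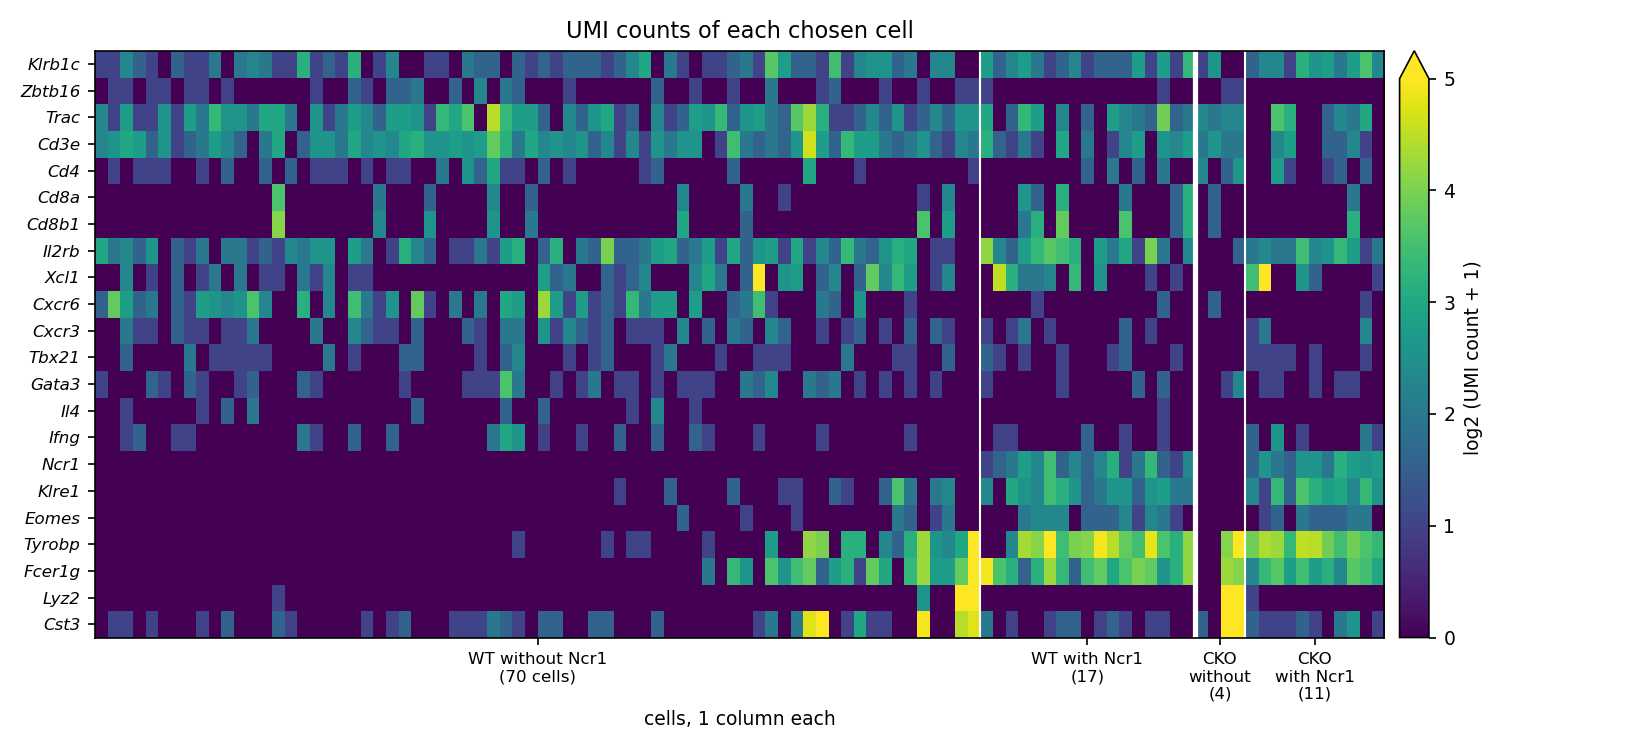
UMI counts of 22 genes (rows) in each of the 102 Klrb1c/Zbtb16 cells (1 column each), as log2 of the count plus 1. Within each library cells without Ncr1 stand left of cells with it, and within these by rising NK marker level. Of the 70 WT cells at the left 45 carry Cxcr6, 60 Il2rb and 66 Trac, whereas 11 of the 15 CKO cells carry Ncr1 with Tyrobp and Fcer1g, and 2 of the other 4 carry Lyz2 and Cst3.

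Klrb1c/Zbtb16 cells were scarcer in the CKO spleen, as were αβ T cells at large. They made up 0.686% of WT cells (0.550 to 0.846) and 0.119% of CKO cells (0.0666 to 0.196), a ratio of 0.173 (0.0931 to 0.302), or 5.77-fold lower. The gate without its Klrb1c or Zbtb16 condition held 2982 WT cells (23.5%) and 498 CKO cells (3.95%), a ratio of 0.168 (0.152 to 0.185). Within that gate the Klrb1c/Zbtb16 cells took 2.92% in WT (2.34 to 3.59) and 3.01% in CKO (1.70 to 4.92), a ratio of 1.03 (0.554 to 1.80). By the rule alone, their fall was the same in size as that of the other αβ T cells within counting error. Shares of all cells also move with every other cell type: B cells held 56.7% of WT and 78.1% of CKO cells.

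The even share within the gate came from cells with Ncr1. Without them, 70 WT and 4 CKO cells remained, 0.552% and 0.0317% of all cells, a ratio of 0.0575 (0.0152 to 0.154). That is 2.35% of the WT gate (1.83 to 2.96) and 0.803% of the CKO gate (0.219 to 2.04), a ratio of 0.342 (0.0907 to 0.916). Cells with Ncr1 gave the opposite order, 0.570% of the WT gate and 2.21% of the CKO gate, a ratio of 3.87 (1.64 to 8.77). NK cells themselves, gated on Klrb1c and Ncr1 with no Cd3d, Cd3e or Cd79a, rose from 302 to 738 cells, 2.46-fold. With the further demand for Trac and under 10 Lyz2 UMIs, a choice made after the counts were seen, 64 WT and 2 CKO cells remained. Their ratio was 0.0314 of all cells (0.00373 to 0.118) and 0.187 of the gate (0.0222 to 0.704).

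Klrb1c and Zbtb16 were found together in 18 WT cells, 0.604% of the gate, and in 0 of 498 CKO cells, which allows a share of up to 0.602% at 3 counts and of up to 0.738% by the exact interval. The interval of the CKO over WT ratio, 0 to 1.36, does not part these shares. Klrb1c without Zbtb16 was found in 57 WT and 13 CKO cells, and Zbtb16 without Klrb1c in 12 and 2. Cxcr6, a chemokine receptor typical of NKT and tissue-resident T cells and no part of the rule, was found in 47 of the WT cells and 2 of the CKO cells. That is 1.58% and 0.402% of the gate, a ratio of 0.255 (0.0300 to 0.973). The plot of shares sets these subsets side by side.

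**Figure D2:**
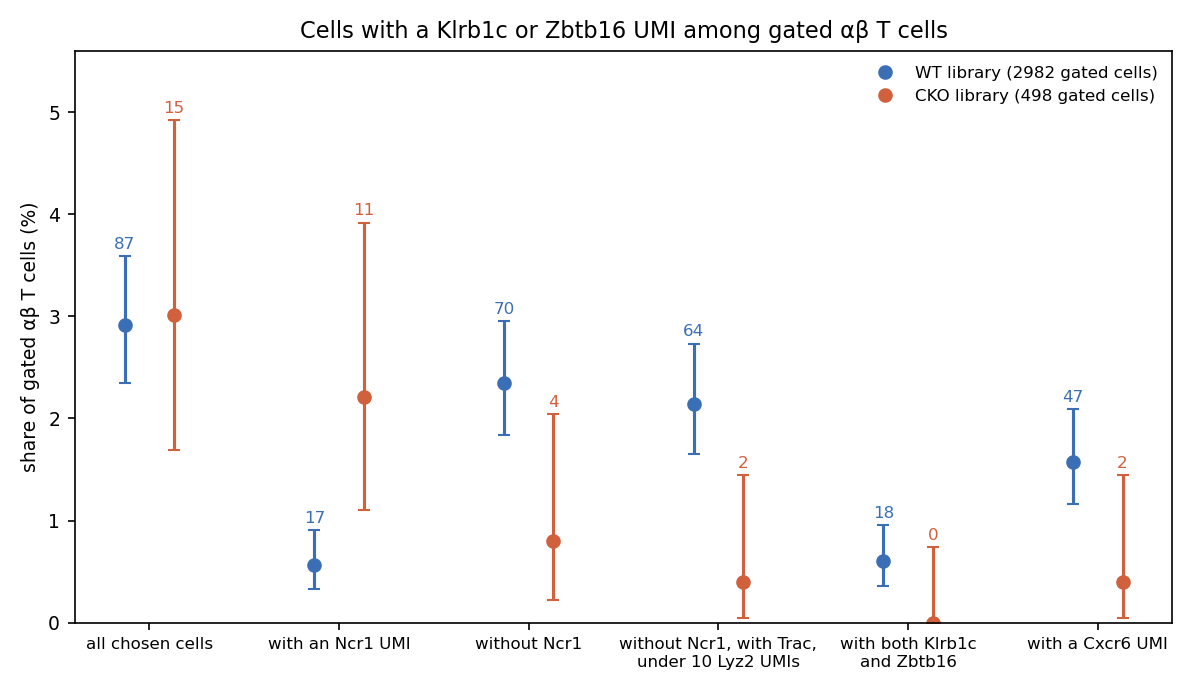
Share of gated αβ T cells (%, y axis) that were Klrb1c/Zbtb16 cells, in all and by subset (x axis), for the WT (blue) and CKO (orange) library. Points are shares, bars exact 95% binomial intervals of counting error, and numbers above the bars count cells. All chosen cells stand at 2.92% and 3.01%, those without Ncr1 at 2.35% and 0.803%, and those with Ncr1 at 0.570% and 2.21%.

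Kindred gates moved in different ways. Memory-like CD8 cells, gated αβ T cells with Cd8a or Cd8b1, Il2rb and any of Ccl5, Nkg7 or Cxcr3, fell from 409 to 23 cells, 13.7% and 4.62% of the gate, a ratio of 0.337 (0.211 to 0.512). This is close to the 0.342 of the Klrb1c/Zbtb16 cells without Ncr1, and the intervals overlap. γδ T cells, which lie outside that gate, numbered 53 in WT and 130 in CKO. As a share of all cells they were 2.47-fold higher (1.78 to 3.46), where memory-like CD8 cells gave a ratio of 0.0565 (0.0354 to 0.0860). Of the γδ T cells 26 and 38 had Klrb1c or Zbtb16, a ratio of 1.47 (0.869 to 2.52) over all cells.

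UMIs of the rule's genes were also found in cells that should lack them. Klrb1c (chr6:128778485-128789215, minus strand, mm10) had a UMI in 0.751% of WT and 1.60% of CKO B cells, and in 2.52% (1.98 to 3.14) and 2.61% (1.40 to 4.42) of gated αβ T cells. Median depths were 4665 and 4457 UMIs in B cells and 6855 and 5948.5 in the gate. At the B cell share, the gates would hold 22.4 of the 75 WT and 7.99 of the 13 CKO cells with Klrb1c. Zbtb16 (chr9:48654297-48836222, minus strand) was at 0.0834% and 0.183% in B cells and at 1.01% and 0.402% in the gate. Its 30 WT cells stand against 2.49 at the B cell share, and its 2 CKO cells against 0.910. Of the B cells with Klrb1c, 18 of 54 in WT and 44 of 158 in CKO had exactly 1 UMI of it. Whether free RNA or droplets with more than 1 cell gave these UMIs was not tested. In the CKO library the interval of the Klrb1c share in T cells reached below the share in B cells.

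Cells near the limits of the rule differed from those well inside it. Exactly 2 UMIs of Cd3d and Cd3e were found in 0 WT and 2 CKO cells, and both of these had Ncr1 and no Trac. Just outside, with 1 such UMI, stood 11 WT cells, of which 11 had Ncr1 and 0 had Trac, and 15 CKO cells, of which 14 had Ncr1 and 0 had Trac. For the other limit, 26 WT and 4 CKO cells had exactly 1 UMI of Klrb1c and Zbtb16 together. Of these 26 WT cells 61.5% had Il2rb and 34.6% Cxcr6, against 96.7% and 62.3% of the 61 with 2 or more, and 21.1% and 10.4% of the 2895 with none.

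In the WT cells without Ncr1, transcription factors and cytokine genes known from innate T cells were higher than in other αβ T cells. No gate of memory or effector CD4 cells was set beside them. Of the 70 cells, 27 had Cd4 alone and 33 had no Cd4, Cd8a or Cd8b1 UMI. Whether these genes are particular to innate T cells was therefore not tested. Levels are CPM over the summed cells, called higher or lower at 2-fold among 6074 genes with at least 20 counts over both groups and 20 CPM in one. Against the other gated αβ T cells of the same library, 8.31% of these genes were higher and 2.09% lower. Id2, a factor that opposes the naive T cell programme, stood at 1009 CPM against 100.1 CPM, 10.1-fold higher (9.18 to 11.1). Rora stood at 156 against 11.7 CPM (13.3-fold, 10.3 to 17), and Maf at 159 against 24.6 CPM (6.48-fold, 5.13 to 8.12). Tbx21, which encodes T-bet, stood at 77.1 against 8.07 CPM (9.55-fold, 6.69 to 13.4). Gata3 stood at 110 against 37.2 CPM (2.97-fold, 2.26 to 3.84). Each was 2-fold higher or more, and the cell with most UMIs held at most 17.5% of any of them.

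Il4 and Ifng, the hallmark cytokines of NKT2 and NKT1 cells, were both present. Il4 had 19 UMIs in the 70 cells and 8 in the 2895 other αβ T cells, 33.3 against 0.380 CPM (87.6-fold, 36.6 to 231). Ifng stood at 70.1 against 5.84 CPM (12-fold, 8.18 to 17.3). Xcl1 stood at 429 against 36.0 CPM, but 1 cell with 127 UMIs held 51.8% of its count. Over all 87 WT cells, 11 had Il4, 25 had Ifng and 6 had both, while 59 had Il4, Ifng or Xcl1. Of the 70 without Ncr1, 10 had Il4, 5 had Il4 and Ifng, and 47 had any of these genes.

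By UMIs of Tbx21 and Gata3, the WT cells were not sorted into one NKT class. Over the 87 cells Tbx21 gave 53 UMIs in 34 cells and Gata3 69 UMIs in 38, each with a median of 0. A missed transcript can therefore place a cell in the wrong group. Tbx21 without Gata3 was found in 20 of 87 cells, Gata3 without Tbx21 in 24, both in 14 and neither in 29. Without the cells with Ncr1 these numbers were 15, 22, 12 and 21 of 70. Of the 18 genes of the NKT1 list, 17 were measured in the cells without Ncr1 and 15 were 2-fold higher, with a median log2 ratio of 2.73 against 0.17 over all genes tested. Of 9 measured NKT2 genes, 4 were higher, Il4, Maf, Gata3 and Icos, and 1 was lower, the interleukin 6 receptor Il6ra, with a median of 0.65. Of the 14 NKT17 genes only 3 were measured and 2 were higher, Tmem176a and Tmem176b, of whose UMIs in all 87 cells 71.4% and 74.4% lay in 1 cell. Against NK cells, 1 of the 18 NKT1 genes was higher and 11 were lower in the cells without Ncr1. The median log2 ratio was then −1.28 against −0.14 over all genes tested, so the NKT1 list does not part NKT1 from NK cells. Against memory-like CD8 cells 9 of 16 measured NKT1 genes were higher and 0 lower, with a smaller median of 1.10 against 0.22. That list holds genes used to set the memory-like gate, such as Nkg7 and Cxcr3. The invariant NKT receptor segments gave 1 Trav11 UMI in 1 WT cell and 0 for Traj18, in a library of 3′ ends that seldom reach them.

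Receptors for homing and for innate cytokines were raised with them. Cxcr6 (chr9:123806475-123811760, plus strand) stood at 385 CPM (336 to 440) against 23.5 CPM (21.5 to 25.7), 16.4-fold higher (13.9 to 19.3), and 45 of 70 cells had a UMI. A Cxcr6 UMI was also found in 34.0% of WT γδ T cells and 24.0% of WT memory-like CD8 cells, so it is not particular to the chosen cells. Cxcr3, a chemokine receptor of type 1 T cells, was found in 41 of 70, and 32 cells had both. Of 14 measured residency and homing genes 9 were higher and 1, the integrin gene Itgae, was lower, all 7 of its UMIs in 1 cell, with a median log2 ratio of 2.22. Il12rb2, a chain of the interleukin 12 receptor, stood at 28.0 against 0.760 CPM (36.9-fold, 17.3 to 78.8). Il18rap, of the interleukin 18 receptor, stood at 78.8 against 10.4 CPM (7.55-fold, 5.35 to 10.4). Il2rb stood at 405 against 60.3 CPM (6.71-fold, 5.80 to 7.72). Of 19 measured cytokine receptor and survival genes 7 were higher and 1 was lower, the inhibitor Socs3, at 0.134 of its level in other αβ T cells.

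Lectin receptors of the NK complex were higher throughout. All 11 measured members other than Klrb1c were 2-fold higher, with a median log2 ratio of 3.62. Klrk1, which encodes NKG2D, stood at 133 against 9.92 CPM (13.4-fold, 10.2 to 17.5). Klrc2 stood at 57.8 against 3.85 CPM (15.0-fold, 9.71 to 22.8). Klra7, of the Ly49 family, stood at 147 against 5.84 CPM (25.2-fold, 18.9 to 33.5). Ly49 genes are near-identical copies whose 3′ reads can be shared, so the level of any 1 of them is uncertain. Fcer1g and Tyrobp, which encode signalling adaptors of such receptors, were 18.5-fold and 12.6-fold higher but were found in only 19 and 18 of the 70 cells.

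Cytotoxic genes were raised less evenly. Of 9 measured cytotoxic granule genes 6 were higher, among them Fasl at 9.96-fold and Ctsw at 2.80-fold, while Prf1, which encodes perforin, gave a ratio of 1.10. Gzma, granzyme A, gave 3.93, but 1 cell held 84.5% of its 58 UMIs. Of 15 measured genes of the S100 and memory list 11 were higher and 0 lower (median log2 ratio 1.70), including S100a6 at 550 against 72.3 CPM (7.61-fold, 6.72 to 8.60) and the adhesion receptor Cd44 at 5.20-fold.

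Genes of naive T cells and of the CD8 lineage were lower. Of 14 measured naive genes 7 were lower and 0 higher (median log2 ratio −0.96). Igfbp4 stood at 28.0 against 249 CPM, a ratio of 0.113 (0.0644 to 0.183). The lymph node homing receptor Ccr7 gave a ratio of 0.251 (0.169 to 0.359). The coreceptor genes Cd8b1 and Cd8a gave 0.187 (0.142 to 0.241) and 0.290 (0.202 to 0.404), while Cd4 gave 0.737 (0.551 to 0.967). Among the 87 WT cells, 31 had Cd4 alone, 15 had Cd8a or Cd8b1 alone, 1 had both and 40 had neither. In a sparse count no UMI does not mean no protein.

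Several programmes did not part the WT cells from other αβ T cells at 2-fold. Of 8 measured RPA and ATR checkpoint genes 0 were higher or lower, and Rpa1 stood at 35.0 against 44.3 CPM (ratio 0.791, 0.481 to 1.23). Of 26 type I interferon response genes 0 were higher and 1 was lower, and of 9 heat shock genes 0 were higher or lower. Of 11 p53 targets 1 was higher, Pmaip1, 1 cell holding 6 of its 12 UMIs. Slamf6, a receptor needed for NKT selection, gave 0.836 (0.665 to 1.04), and of 13 genes of innate T cell selection only Cd44 was higher. Over all 87 cells, 10 of 12 cycling genes were higher, but 73.7% of the Mki67 UMIs and 70.7% of the Top2a UMIs lay in 1 cell.

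The counts over all 87 WT cells were similar in extent. Of 6011 genes tested, 8.07% were higher and 1.6% lower than in other αβ T cells. The 12 genes that ranked first were then Klri2, Ncr1, Klrb1f, Klra9, Il4, Klra7, Klrc2, Fcer1g, Gzma, Tyrobp, Cd244a and Il12rb2. Cxcr6 was 12.6-fold higher (10.7 to 14.8). Other lists of foreign cell types also moved. Lyz2 was 11.9-fold higher with 85.5% of its UMIs in 1 cell, and the MHC class II genes Cd74 and H2-Aa were 3.91-fold and 4.79-fold higher with 57.1% and 57.5% in 1 cell.

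**Figure D3:**
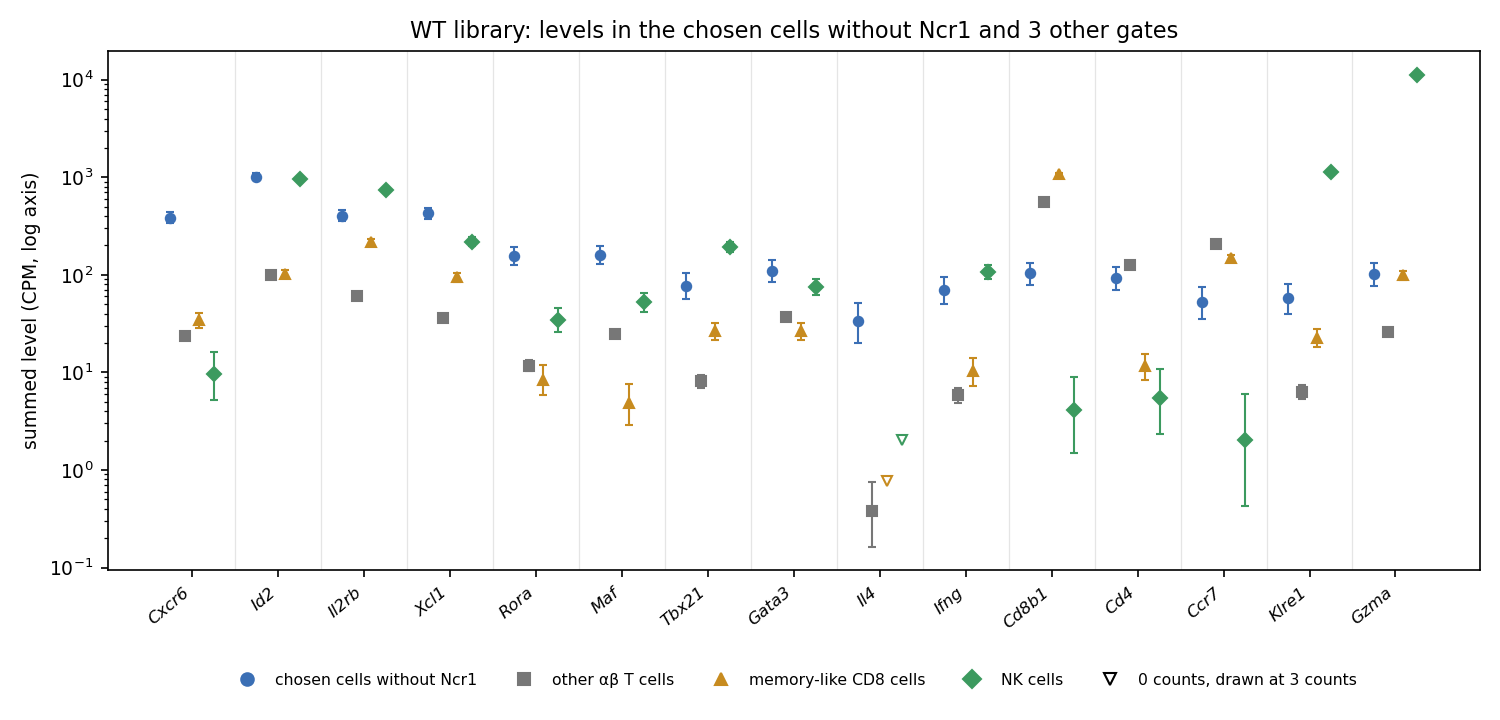
Summed level (CPM, log axis) of 15 genes in the WT library, in the 70 Klrb1c/Zbtb16 cells without Ncr1 (blue circles), other gated αβ T cells (grey squares), memory-like CD8 cells (amber triangles) and NK cells (green diamonds). Bars are exact 95% Poisson intervals and open triangles mark genes with 0 counts, drawn at 3 counts. The chosen cells stand apart from all 3 gates in Cxcr6 (385 CPM) and Rora (156 CPM), share Id2 with NK cells, and lie far under NK cells in Gzma and Klre1. γδ T cells are not drawn, and 34.0% of those in WT had a Cxcr6 UMI.

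Memory-like CD8 cells also carry Il2rb and effector genes, and the WT Klrb1c/Zbtb16 cells without Ncr1 differed from them too. Of 6050 genes tested 8.45% were higher and 1.85% lower than in the 409 memory-like cells. The genes that set that gate, Il2rb, Cd8a, Cd8b1, Ccl5, Nkg7 and Cxcr3, are left aside. Asb2 stood at 50.8 against 0.511 CPM (99.4-fold, 25.1 to 860). Maf was 32.8-fold higher (19.9 to 57.0), Rora 18.5-fold (12.3 to 28.5), the ATP receptor gene P2rx7 20.1-fold (11 to 38.9) and Id2 9.85-fold (8.65 to 11.2). Cxcr6 stood at 385 against 34.2 CPM (11.3-fold, 9.04 to 14.1). Lower were Eomes, the T-box factor of memory CD8 and NK cells, at a ratio of 0.227 (0.120 to 0.393), Gzmm at 0.111 (0.0226 to 0.328), and Myb at 0.249 (0.128 to 0.441). Of 7 measured regulatory T cell markers 6 were higher and 1 lower. The memory-like gate held 0 of 409 cells with Cd4 alone, against 27 of the 70. Set against all other gated αβ T cells, 4 of 7 such markers were higher and 1 lower. Foxp3 is 0 by the rule, but no UMI of it does not show that no regulatory T cell was chosen. Among those markers, Ikzf2, which encodes Helios, stood at 300 CPM in the chosen cells and 66.4 CPM in the memory-like cells.

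Against NK cells of the same library the same 70 cells showed T cell genes higher and NK genes lower. The gates themselves favour this order, as NK cells needed Ncr1 and no Cd3d or Cd3e, and the 70 cells the reverse. The values are therefore a description and do not check the name. Of 6497 genes tested 6.7% were higher and 10.5% lower. All 14 NK markers were lower, where the absence of Ncr1 is set by the choice of cells. Gzma stood at 102 against 11175 CPM, a ratio of 0.00909 (0.00690 to 0.0118), Klre1 at 57.8 against 1129 CPM (0.0512, 0.0351 to 0.0722) and Prf1 at 33.3 against 848 CPM (0.0393, 0.0236 to 0.0616). Higher were the T cell genes Cd5 at 159 against 0.683 CPM, from 91 UMIs and 1 UMI, and Themis at 105 against 0.683 CPM. Bcl11b, a factor of T cell identity, was 20.6-fold higher (12.9 to 34.7) and Cxcr6 40.3-fold higher (23.5 to 74.9).

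The 17 WT cells with Ncr1 were unlike the 70 without it. Of 5038 genes tested 5.2% were higher and 7.44% lower. All 12 measured NK markers were higher (median log2 ratio 2.90), Ncr1 by the choice of cells. Gzma stood at 2623 against 102 CPM (25.8-fold, 19.6 to 34.5), Klre1 at 418 against 57.8 CPM (7.23-fold, 4.75 to 11.2) and Eomes at 185 against 22.8 CPM (8.11-fold, 4.17 to 16.7). Cxcr6 stood at 16.3 against 385 CPM, from 3 UMIs and 220, a ratio of 0.0423 (0.00865 to 0.125). Maf gave 0.102 (0.0207 to 0.308) and Ly6a 0.0976 (0.0262 to 0.256). Their levels of NK genes lay between those of the other Klrb1c/Zbtb16 cells and NK cells, at a median of 82.4 NK marker UMIs per 10000 (14.5 to 149) against 1.26 (0 to 76.0) and 251 (25.3 to 507).

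Within the WT cells, Zbtb16 and Klrb1c marked overlapping but unlike sets. The 30 cells with Zbtb16 were set against the 57 with Klrb1c alone, and 4.82% of 5038 genes were higher and 5.34% lower. Lmo4, a transcription cofactor, stood at 208 against 56.3 CPM (3.70-fold, 2.30 to 6.10), and Il4 at 47.8 against 13 CPM (3.68-fold, 1.33 to 11.7). Cd8a had 1 UMI against 62, a ratio of 0.0254 (0.000633 to 0.147), and Cd8b1 gave 0.186 (0.0899 to 0.349) with its 11 UMIs in 1 cell. Eomes gave 0.107 (0.0213 to 0.335) and Xcl1 0.149 (0.0956 to 0.223), with 46.2% of the Xcl1 UMIs of the other set in 1 cell. Cxcr6 differed less, at 362 against 253 CPM (1.43-fold, 1.09 to 1.87). Ncr1 was found in 2 of the 30 cells with Zbtb16 and 15 of the 57 others, and 5 and 12 were marked by the doublet score. Of 12 measured NK markers 8 were lower in the cells with Zbtb16 (median log2 ratio −1.74 against −0.02 over all genes tested), and of 14 lectin receptors 8 were lower and 1 higher (median −1.34). Both WT cells with 10 or more Lyz2 UMIs had Zbtb16.

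With the cells that carry Ncr1 left out of both sets, a setting added after the data were seen, 28 cells with Zbtb16 stood against 42 with Klrb1c alone. Lmo4 was then 3.20-fold higher (1.95 to 5.42), Cd8a gave 0.0361 (0.000888 to 0.215), Cd8b1 0.281 (0.132 to 0.549) and Xcl1 0.146 (0.0931 to 0.219). The 1 Cd8a and 11 Cd8b1 UMIs of the set with Zbtb16 lay in 1 cell, which was marked by the doublet score. In the other set 1 cell held 58.0% of the Xcl1 UMIs. Il4 gave 2.66 with an interval that reached under 1 (0.943 to 8.53). Eomes had 0 UMIs against 13, where the set with Klrb1c alone had 44 before, 31 of them in cells with Ncr1. Cxcr6 gave 1.10 (0.836 to 1.45), which does not part the sets. The part of NK transcripts in the other values of this comparison was not tested. Of the 18 cells with both genes of the rule, 15 had Cxcr6, 10 had Cd4 and 0 had Cd8a or Cd8b1.

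The targeted gene was read in few counts. Rpa1 (ENSMUSG00000000751, chr11:75298166-75348324, minus strand) had 32 UMIs in the 87 WT cells, 42.4 CPM, and 2 UMIs in the 15 CKO cells, 16.2 CPM. The ratio was 0.383 with an interval of 0.0444 to 1.5, which does not part it from no change. Other gated αβ T cells stood at 44.3 CPM in WT and 35.3 CPM in CKO, and NK cells at 53.3 and 49.0 CPM. Its partner Rpa2 gave 9 UMIs against 16 (3.44-fold, 1.34 to 8.27), and Rpa3 gave 8 against 35 (1.40-fold, 0.561 to 3.07). A 3′ read outside the deleted part says nothing on whether the gene was inactivated.

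Between genotypes the chosen cells of the CKO library held more NK transcripts and fewer of Cxcr6 and Maf. Of 5530 genes tested 7.38% were higher and 9.91% lower in the 15 CKO than in the 87 WT cells. Most of these calls rest on few counts. Among 408 genes called higher, 42 had an interval wholly past 2-fold, and among 548 called lower, 25 did. Of 14 NK markers 13 were higher, with a median log2 ratio of 1.87 against 0.03 over all genes tested. Gzma stood at 3024 against 717 CPM (4.22-fold, 3.69 to 4.82), Plek at 308 against 45 CPM (6.84-fold, 4.19 to 11.2) and Tyrobp at 1784 against 519 CPM (3.44-fold, 2.90 to 4.06). Of the 220 Tyrobp UMIs in the CKO cells, 58 lay in the pair with Lyz2. Ncr1 (chr7:4337724-4345164, plus strand) stood at 405 against 87.4 CPM (4.64-fold, 3.15 to 6.80). Zeb2, Klre1, Prf1, Klrb1f, Klri2, Irf8, Klrc2 and Klrk1 were 2.27-fold to 5.02-fold higher. Ccl4 and Ccl3 had the largest ratios, 14.1 and 13.9, but 1 CKO cell held 70.3% and 57.6% of their UMIs.

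Cxcr6, Maf and a further set of genes were lower in the CKO cells. Cxcr6 had 3 UMIs in 2 of 15 CKO cells and 223 UMIs in 47 of 87 WT cells, 24.3 against 295 CPM, a ratio of 0.0824 (0.0169 to 0.244). The share of cells with Cxcr6 did not fall in every T cell gate. It was 10.4% in WT and 4.14% in CKO for other αβ T cells. Memory-like CD8 cells gave 24.0% and 60.9% (14 of 23), and γδ T cells 34.0% and 36.9%. Maf gave 0.130 (0.0155 to 0.484) and Il7r, the interleukin 7 receptor, 0.198 (0.105 to 0.343), with 46.2% of its 13 CKO UMIs in 1 cell. Ikzf2 gave 0.267 (0.121 to 0.518), Cd226, an activating adhesion receptor, 0.189 (0.0686 to 0.420) and Ly6c2 0.234 (0.150 to 0.348). Art2b had 0 UMIs in the CKO cells against 92, at least 5.01-fold lower, with 3 counts taken as the floor over the summed CKO cells. By the same floor Klra6 was at least 4.03-fold, Ifi208 2.94-fold, Lyar and Snhg12 2.83-fold and Atp8a2 2.29-fold lower. Of these 12 genes, Cxcr6, Maf, Ikzf2, Cd226, Ly6c2, Art2b, Klra6 and Atp8a2 were also 2-fold or more higher in the WT cells without Ncr1 than in other αβ T cells, from 2.10-fold for Art2b to 20.7-fold for Atp8a2. Il7r, Ifi208, Lyar and Snhg12 were not, at ratios of 1.17, 0.775, 1.29 and 1.09. Of 13 measured effector transcription factors 3 were higher and 2 lower in the CKO cells (median log2 ratio −0.33), and of 14 residency and homing genes 3 and 2 (median 0.47). Il4 had 0 UMIs against 20, in 0 of 15 cells, which allows a share of up to 20% at 3 counts and 21.8% by the exact interval, where the WT share was 12.6% (6.48 to 21.5), so a loss was not detectable at this depth.

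The NKT lists followed that pattern in part. Of 18 NKT1 genes 4 were higher and 0 lower (median log2 ratio 0.41), namely Ccl4, Klrk1, Klrc1 and Il12rb2. Tbx21 gave 0.693 (0.243 to 1.61), Ifng 1.60 (0.770 to 3.06) and Il2rb 0.960 (0.705 to 1.29). Of 9 NKT2 genes 2 were higher, Cd4 and Il6ra, and 4 lower, Maf, Ltb, Izumo1r and Icos. Their median was −1.23, or −0.54 with Il4 held at its bound. Slamf6 gave 0.475 (0.200 to 0.972) and Cd8a 0.486 (0.152 to 1.19). Of 11 cycling genes 7 were lower, where 1 WT cell held most of the counts. B cell markers were lower in 3 of 4, H2-Aa by a ratio of 0.0952, and 1 WT cell held 57.5% of its UMIs. Of the myeloid markers 3 of 4 were higher, with Lyz2 at 1614 against 656 CPM, carried by the pair of CKO cells named above.

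With only the cells that carry Ncr1 compared, 11 CKO against 17 WT, fewer of these differences stood. Of 2268 genes tested 4.14% were higher and 6.35% lower, and of 13 measured NK markers 1 was higher, with a median log2 ratio of 0.66. Intervals wholly past 2-fold were found for 2 of 94 genes called higher and 23 of 144 called lower. Gzma was 1.58-fold higher (1.37 to 1.81) and Tyrobp 1.33-fold (1.09 to 1.63), against 4.22-fold and 3.44-fold in all chosen cells. Plek gave a ratio of 3.08 (1.66 to 5.83). Il7r at 0.303 (0.132 to 0.613), Cd226 at 0.275 (0.0844 to 0.699), Ly6c2 at 0.129 (0.0653 to 0.230) and Ikzf2 at 0.418 (0.157 to 0.954) were past 2-fold lower. Single cells weigh on these: 1 CKO cell held 66.7% of the Il7r and 75.0% of the Ly6c2 UMIs, and 1 WT cell 60.0% of the Ikzf2 UMIs. For Cxcr6, with 1 UMI against 3, no ratio could be read. The CKO over WT ratio in NK cells was 1.01 for Gzma and 0.994 for Plek, with 0.612% of genes higher and 0.258% lower in that comparison, but 0.443 (0.344 to 0.569) for Il7r, 0.407 (0.306 to 0.541) for Ikzf2 and 0.183 (0.104 to 0.312) for Ifi208. Other gated αβ T cells, with 1.32% of genes higher and 0.661% lower, gave 0.542 for Il7r, 1.08 for Ikzf2, 0.635 for Ifi208 and 0.432 (0.290 to 0.621) for Cxcr6.

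**Figure D4:**
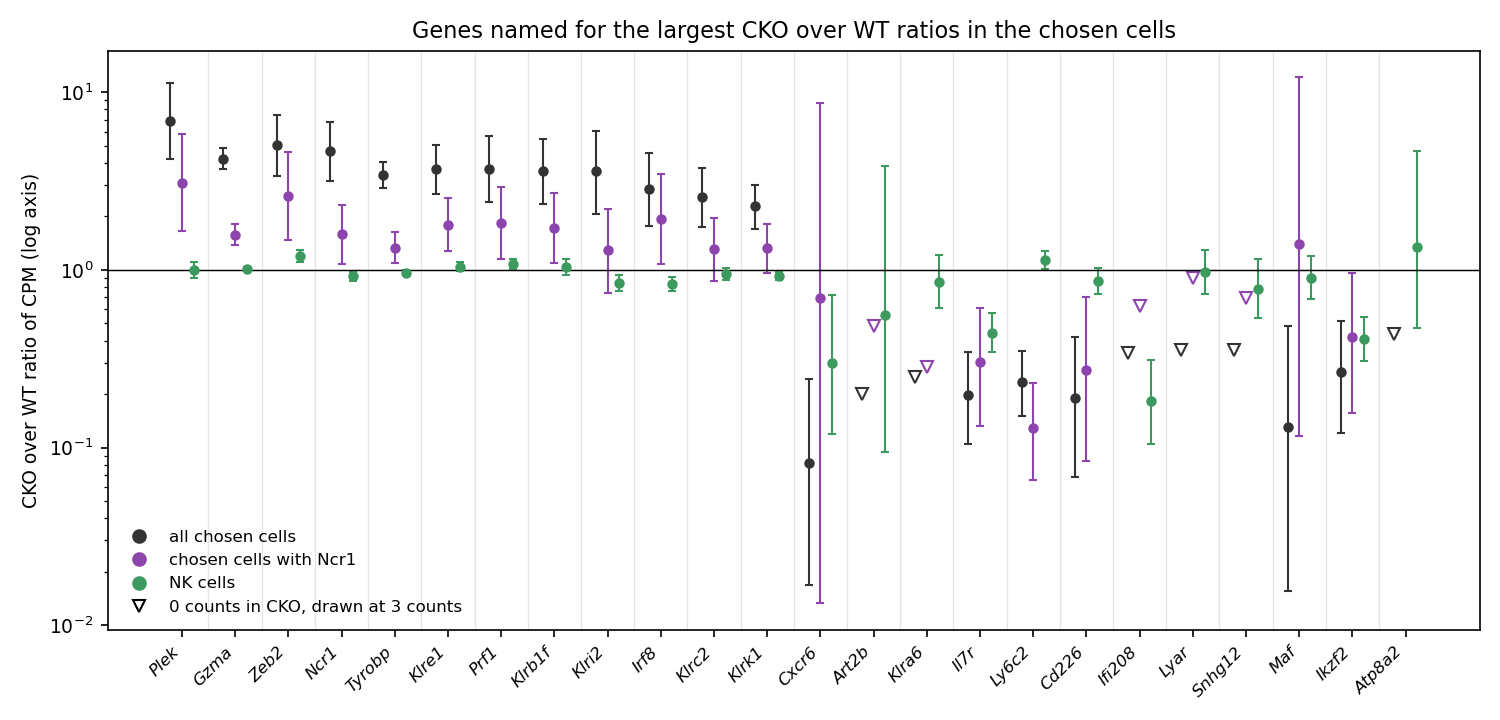
CKO over WT ratio of CPM (log axis) for the 24 genes named by rank, in all Klrb1c/Zbtb16 cells (black), those with Ncr1 (purple) and NK cells (green). Bars are exact 95% intervals of counting error, and open triangles are bounds for genes with 0 CKO counts, left out where the bound lies above 1. Gzma falls from 4.22 in all chosen cells to 1.58 in those with Ncr1 and 1.01 in NK cells, while Il7r and Ikzf2 lie past 2-fold lower in all 3.

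Within the CKO library NK genes again led. Against the 483 other gated αβ T cells of that library, 16.8% of 6365 genes were higher and 7.98% lower in the 15 chosen cells. Here too most intervals reached inside 2-fold. Those of 182 among 1068 genes called higher, and of 17 among 508 called lower, did not. All 13 measured NK markers and all 10 lectin receptors were higher, and 7 of 14 naive genes lower. Gzma stood at 3024 against 8.18 CPM and Klre1 at 535 against 5.24 CPM. Rora stood at 97.3 against 14.1 CPM (6.91-fold, 3.32 to 13.3), with 6 of its 12 UMIs in 1 cell. Cxcr6, from 3 UMIs, stood at 24.3 against 10.1 CPM (2.40-fold, 0.469 to 7.69), and Maf, from 2 UMIs, at 16.2 against 6.87 CPM (2.36-fold, 0.268 to 9.65), neither of which was parted from no change.

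Only 4 CKO cells had no Ncr1, too few to describe as a population. Beside the pair with Lyz2, 1 cell of 2900 UMIs had 5 Klrb1c, 2 Cd8a, 2 Cd8b1 and 2 Cxcr6 UMIs, with no Zbtb16, Il2rb, Xcl1 or Gata3. The other, of 5288 UMIs, had 1 Klrb1c and 4 Cd4 UMIs, with no Cxcr6, Il2rb, Xcl1 or Zbtb16. Thus 0 of 15 CKO cells combined Zbtb16, Cxcr6 and Il2rb, against 21 of 87 WT cells. In 15 cells, 0 allows a share of up to 20% at 3 counts and 21.8% by the exact interval. The pair with Lyz2, both marked by the doublet score, were the only CKO cells with Zbtb16. Whether such cells were lost was not tested.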

How the data were processed

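Deposited UMI counts per gene and barcode were used as raw counts. Cell Ranger 6.0.2 is named in the headers of the deposited matrices, whereas the submitters' processing notes name Cell Ranger 5.0.0, Seurat 4.0.3 and mm10. Barcodes with 200 to 6000 genes and under 10% mitochondrial UMIs were kept. Doublets were scored with Scrublet in scanpy 1.11.5 (expected 0.8% per 1000 cells), and no cell was removed in the values reported. The cells of highest score were marked up to about the expected share, so the share marked over all cells is set by this choice. The members, the 28 gene lists and the rules were chosen with earlier results of these data known.

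Counts were summed over cells as CPM. A gene was compared with at least 20 summed counts and 20 CPM in one group, and called at 2-fold by its ratio alone. Many genes so called had an interval that reached inside 2-fold. List medians used a pseudocount of 1 CPM. Genes at 0 were set against a floor of 3 counts over the summed group. Shares have exact Clopper-Pearson, levels exact Poisson and ratios exact conditional binomial intervals, which cover counting error only. Cells of 1 library are not replicates, so no test across genes was run. The 12 higher and 12 lower named genes were ranked by the ratio bound nearest 1, without genes with over 25% of counts in 1 cell, genes under 2% of their level in the highest reference gate, segments of antigen receptors, genes of ribosomes, mitochondria or sex chromosomes, unnamed genes and the genes of the rule. List members and lineage genes were named beside them, and others after their values were seen. Shares were also computed with each cell thinned to 1000 UMIs. The work ran in Python 3.11.15 with pandas 2.3.3, numpy 2.4.6, matplotlib 3.10.9 and scipy 1.17.1. Some listed genes are not reported here.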

Additional observations from a re-analysis of the deposited data

How the results depend on the processing

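The CKO over WT ratio of the share of all cells was 0.173. It was 0.0670 with Zbtb16 required, 0.0575 without Ncr1 cells, 0.308 with 1 UMI of Cd3d and Cd3e enough, and 0.0314 with Trac, no Ncr1 and under 10 Lyz2 UMIs, a setting added after seeing the data. The ratio of shares of the αβ gate, 1.03, became 0.399, 0.342, 1.79 and 0.187 under the same settings. WT genes higher than in other αβ T cells numbered 485, against 877 with Zbtb16 required and 1084 at 1.5-fold. Lower genes numbered 96, against 155 without high doublet scores, 273 with Zbtb16 required, 152 without cells with non-T markers, 235 without ribosomal, mitochondrial and receptor UMIs and 257 at 1.5-fold. CKO over WT higher genes numbered 408, against 616 without Ncr1 cells, 105 at 50 counts or more, 966 at 5 or more and 1083 at 1.5-fold. Lower genes numbered 548, against 169 at 50 counts or more and 1096 at 1.5-fold. Fewer or more genes and cells enter under these settings, and the cause was not tested further. Direction turned for Gzma, to a bound of 0.347 with Zbtb16 required, for Klrk1, to bounds of 0.959 with Zbtb16 required and 0.641 without Ncr1 cells, and for Slamf6, to 1.26 with Zbtb16 required, where only 2 or 4 CKO cells remained. Genes at 0 in so few cells gave no value. No paired analysis was possible because each genotype was 1 library. With 15 CKO cells, 3 counts stand for 24.3 CPM.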
